A study of Homo sapiens with 12 samples.

Results

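Ribosome biogenesis and nucleolar genes were followed in 2 prostate cancer cell lines exposed to the 56-mer. The module holds 30 genes, taken by symbol from a list of factors that make or modify ribosomal RNA or assemble ribosomal subunits, out of the 60314 named entries in the expression table of each line. All 30 were found in both tables, and all 30 passed the filter on low values in both lines. C4-2B is a castration-resistant derivative of the LNCaP line, and 22RV1 is a castration-resistant line derived from a xenograft. C4-2B cells and 22RV1 cells received the 56-mer at 50 nM for 48 h, with 3 libraries each. They were set against cells of the same line without 56-mer, also with 3 libraries. All 4 groups carry the genotype label WT and were kept in glutamine-free RPMI-1640 with 5% FBS and L-glutamine at 2 mM. The title of the series speaks of an aptamer, a folded nucleic acid made to bind a target. Its text calls the 3 libraries of a group biological triplicates, and each line is 1 model, so the spread between libraries is not a spread between patients.

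Ribosomes are built in the nucleolus. RNA polymerase I transcribes the large ribosomal RNA precursor there, small nucleolar ribonucleoproteins (snoRNPs) direct methylation and pseudouridylation of it, and assembly factors of the small and large subunit cut, fold and export it together with ribosomal proteins. Many of these genes are known targets of MYC, and in prostate cancer enlarged nucleoli are a classical histological sign.

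Reads recovered from the tables numbered 12277758 to 12508539 per C4-2B library with 56-mer and 10245014 to 13627140 per C4-2B control library. In 22RV1 they numbered 8847368 to 13740386 with 56-mer and 11834331 to 13586045 in controls. The 8 luminal prostate markers reported here, KLK2, KLK3, HOXB13, FOXA1, KRT8, KRT18, KRT19 and EPCAM, were at 1185 normalized read counts or more in every C4-2B library and at 803 or more in every 22RV1 library, while the basal markers KRT5 and TP63 were at 0 in all 12 libraries. With KRT14 and KRT15, which had reads, the 4 basal markers summed to 11.4 to 40.9 with 56-mer and 17.1 to 29.6 in controls in C4-2B, and to 5.47 to 15.2 with 56-mer and 2.03 to 11 in controls in 22RV1. The 30 members took 0.405% ± 0.0146 of the reads in C4-2B with 56-mer and 0.387% ± 0.000851 in C4-2B controls (SD, n = 3 each). The 3 shares with 56-mer lay between 0.393% and 0.421%, above the 3 control shares of 0.386% to 0.387%. The highest was that of the 56-mer 1 library. NPM1 and NCL alone took 34.7% to 36.6% of the members' reads in C4-2B, so the share weighs abundant members most. In 22RV1 the share was 0.346% ± 0.00747 with 56-mer and 0.344% ± 0.0118 in controls, and the groups overlapped. All values are relative to the reads of a library, so a change in cell number or in total RNA per cell is not seen. The libraries hold bulk RNA, so a change in the mix of cells and a change in level per cell cannot be told apart.

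The members spanned a wide range of levels in the control libraries. Levels are given per length, as RPKM: recovered reads over the length of the longest annotated transcript and the recovered reads of the library, which allows genes to be compared. The median member had 25.3 RPKM in C4-2B controls and 27.0 RPKM in 22RV1 controls. NPM1, a histone chaperone and abundant granular component protein of the nucleolus, was the highest member in both lines, with 471 ± 16.1 RPKM in C4-2B and 328 ± 7.11 RPKM in 22RV1 (SD, n = 3 each). In C4-2B it was followed by NHP2 (257 ± 17.4 RPKM), FBL (219.8 ± 1.62 RPKM), NOP10 (213 ± 8.06 RPKM) and NCL (134 ± 4.23 RPKM). FBL and NOP10 differed there by less than the SD of NOP10. In 22RV1 the order after NPM1 was NCL (148 ± 6.21 RPKM), NHP2 (103 ± 8.89 RPKM), FBL (71.7 ± 5.12 RPKM) and NOLC1 (69.0 ± 2.59 RPKM), and FBL and NOLC1 differed by less than the SD of FBL. With the length of all annotated exons in place of the longest transcript, NPM1 stayed the highest in both lines, but NOP10 came before NHP2 and FBL in C4-2B, and in 22RV1 NOLC1, NHP2 and NOP10 came before FBL. At the low end NOP2 had 0.277 ± 0.240 RPKM in C4-2B and 0.519 ± 0.218 RPKM in 22RV1. UTP20 had 2.29 ± 0.474 RPKM in C4-2B and 8.05 ± 0.687 RPKM in 22RV1, and PPAN had 3.34 ± 0.545 RPKM in C4-2B and 6.08 ± 1.74 RPKM in 22RV1.

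Levels of single members differed between the controls of both lines. Each table was normalized on its own, so levels across lines were compared as a share of each library's recovered reads, with no test. Here 10 members (33.3%) were higher in all C4-2B controls than in any 22RV1 control, against 30.1% of all genes tested in both lines, 11 members (36.7%) were higher in all 22RV1 controls, against 46.4% of all genes, and 9 overlapped. Both shares lie near or under the share over all genes. NOP10, the smallest protein of the box H/ACA snoRNPs, had 212.6, 221 and 205 RPKM in C4-2B controls and 51.9, 52.9 and 69.5 RPKM in 22RV1 controls, a ratio of C4-2B over 22RV1 of 3.67. FBL, the methyltransferase of the box C/D snoRNPs, had a ratio of 3.07, and NHP2, another H/ACA protein, of 2.49. On the other side UTP20, a scaffold of the early small subunit particle, had a ratio of 0.285, the polymerase I subunit POLR1B of 0.377 and WDR43 of 0.378. POLR1A, the other large subunit of polymerase I, had a ratio of 0.427. The longest transcripts of NOP10, FBL and NHP2 have 554, 1400 and 865 bases. Those of UTP20, POLR1B, WDR43 and POLR1A have 9025, 5059, 3533 and 12749 bases. PPAN, with 1657 bases, had a ratio of 0.550. Genes detected numbered 20779 to 22686 per C4-2B library and 28342 to 31010 per 22RV1 library. The part of transcript length or detection in these ratios was not tested.

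**Figure D1:**
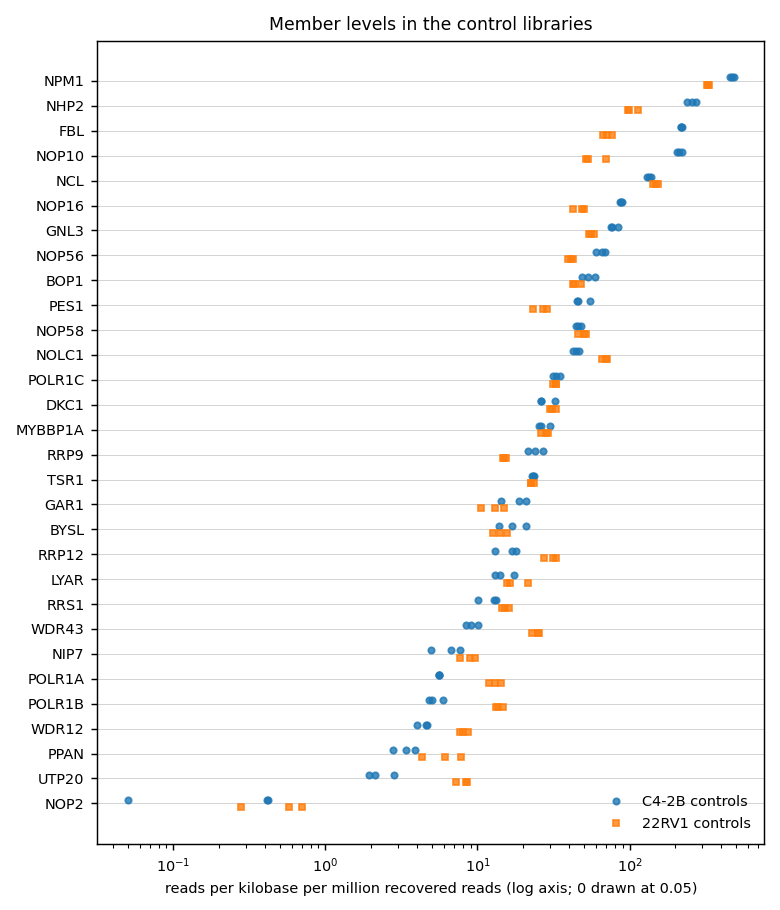
Level of each of the 30 members in the control libraries, in RPKM (reads over transcript length and library reads) on a log axis, with circles for the 3 C4-2B controls and squares for the 3 22RV1 controls. NPM1 is the highest member in both lines at 471 RPKM in C4-2B and 328 RPKM in 22RV1, and NOP2 the lowest, with 1 C4-2B control at 0 drawn at the left edge.

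Promoter sequence is shown for members that carry the CACGTG motif, the E-box known as a binding site of MYC family proteins, because the module is known for MYC control. RefSeq windows of 300 bases around the annotated start (build GRCh38.p14) were matched for 25 members. NOP58, RRP12, BOP1, RRS1 and NOLC1 had no entry. CACGTG, which reads the same on both strands, was present in 12 of the 25 (48%) and in 8.77% of 27305 genes with such windows, where 1 window of a gene was enough. The 12 were FBL, NOP10, GAR1, RRP9, UTP20, WDR43, BYSL, PES1, NOP2, GNL3, MYBBP1A and LYAR. The letters CCGGAAG, the core of sites of ETS factors, searched on both strands, were found in 10 of 25 (40%) against 12.2% of genes. The windows below run from 60 bases before the annotated start to 30 bases from it, 5′ to 3′ on the gene's strand, with CACGTG in capitals. FBL, RRP9 and PES1 stand for members with the motif and a fitted change above 0 with 56-mer in C4-2B. WDR43 and UTP20 stand for members with the motif and a fitted change below 0 there, and NCL and NOP56 for members without the motif. None of these members passed the limma test in C4-2B. 
FBL (chr19:39846350-39846439, minus strand): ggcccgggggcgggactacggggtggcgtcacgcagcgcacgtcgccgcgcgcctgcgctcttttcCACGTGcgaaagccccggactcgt
RRP9 (chr3:51941875-51941964, minus strand): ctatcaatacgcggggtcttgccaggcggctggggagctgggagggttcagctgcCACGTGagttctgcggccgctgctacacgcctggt
PES1 (chr22:30591881-30591970, minus strand): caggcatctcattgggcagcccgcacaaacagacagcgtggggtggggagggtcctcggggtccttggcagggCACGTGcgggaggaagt
UTP20 (chr12:101280045-101280134, plus strand): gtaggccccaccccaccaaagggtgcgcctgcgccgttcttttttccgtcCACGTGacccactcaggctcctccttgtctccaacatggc
WDR43 (chr2:28894607-28894696, plus strand): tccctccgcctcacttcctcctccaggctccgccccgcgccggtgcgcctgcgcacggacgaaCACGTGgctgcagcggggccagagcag
NCL (chr2:231464455-231464544, minus strand): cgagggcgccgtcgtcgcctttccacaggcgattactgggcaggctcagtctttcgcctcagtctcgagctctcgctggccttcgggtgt
NOP56 (chr20:2652572-2652661, plus strand): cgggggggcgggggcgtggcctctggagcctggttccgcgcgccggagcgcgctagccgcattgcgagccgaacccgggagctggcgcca

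Only 60 bases before the start and 30 from it are printed, so nearness of the motif to the start was fixed by this span. In the 5 windows shown with the motif, its first base was at −10 in UTP20 and −5 in RRP9, counted from the start. It was at 4 in WDR43, 7 in FBL and 14 in PES1. In other members it began at −64 in LYAR, 32 in GAR1 and 36 in NOP2, and in NOP10 at −170 as well as −11. The 12 members with CACGTG had a median log2 change with 56-mer of 0.14 in C4-2B, while the 13 without it had a median of 0.042. Of the 12, 10 were higher, against 23 of all 30 members. NOP58, RRP12, BOP1, RRS1 and NOLC1, which had no entry, are in neither median. In 22RV1 the medians were 0.035 with the motif and 0.010 without it. For CCGGAAG, the other letters searched, the medians were 0.096 with and 0.105 without them in C4-2B. In 22RV1 they were 0.0064 with and 0.053 without CCGGAAG. These are descriptions of letters in a window and were given no test.

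In C4-2B no member passed the test with 56-mer, but most fitted changes were small and above 0. The comparison asks which nucleolar transcripts differ once 56-mer joins the glutamine in the medium. Of 30 members, 0 had a limma adjusted p under 0.05, against 11 of 16657 tested genes (0.066%). The fitted log2 change was above 0 in 23 members and below 0 in 7, with a median of 0.12 over the members and −0.011 over all tested genes, of which 48.3% were above 0. The count above 0 was 21 under quantile normalization, 19 with equal library totals and 20 without the 56-mer 1 library. At an unadjusted p under 0.05 there were 6 members (20%), all higher with 56-mer, against 8.92% of all tested genes. This count depended on single libraries: without control 3 it was 2 (6.90%, against 6.31% of all genes in that fit). Without control 1 it was 3 (10.3%, against 7.81%) and without 56-mer 2 also 3 (10.3%, against 7.09%). Without 56-mer 1 it was 4 (13.3%, against 11.5%), without control 2 also 4 (13.3%, against 6.8%), and without 56-mer 3 it was 7 (23.3%, against 9.22%). With equal library totals it was 3 (10%, against 9.14%). The 56-mer and control libraries did not overlap for 5 members (16.7%), all higher with 56-mer, against 7.59% of tested genes, and for 0 members lower with 56-mer, against 7.08%. The members were chosen with earlier results of these data known, so their shares are not independent of these libraries. 1 member, BOP1, was called by DESeq2, which called 42 of the 16657 genes given to it (0.252%). DESeq2 gave no adjusted p to some of these genes, among them POLR1A, POLR1B, WDR43, NOP2 and PPAN. Its adjustment therefore ran over fewer genes than that of limma. BOP1 was also called by limma without the 56-mer 1 library, where 81 of 16322 genes passed (0.496%). edgeR called 0 genes in C4-2B.

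**Figure D2:**
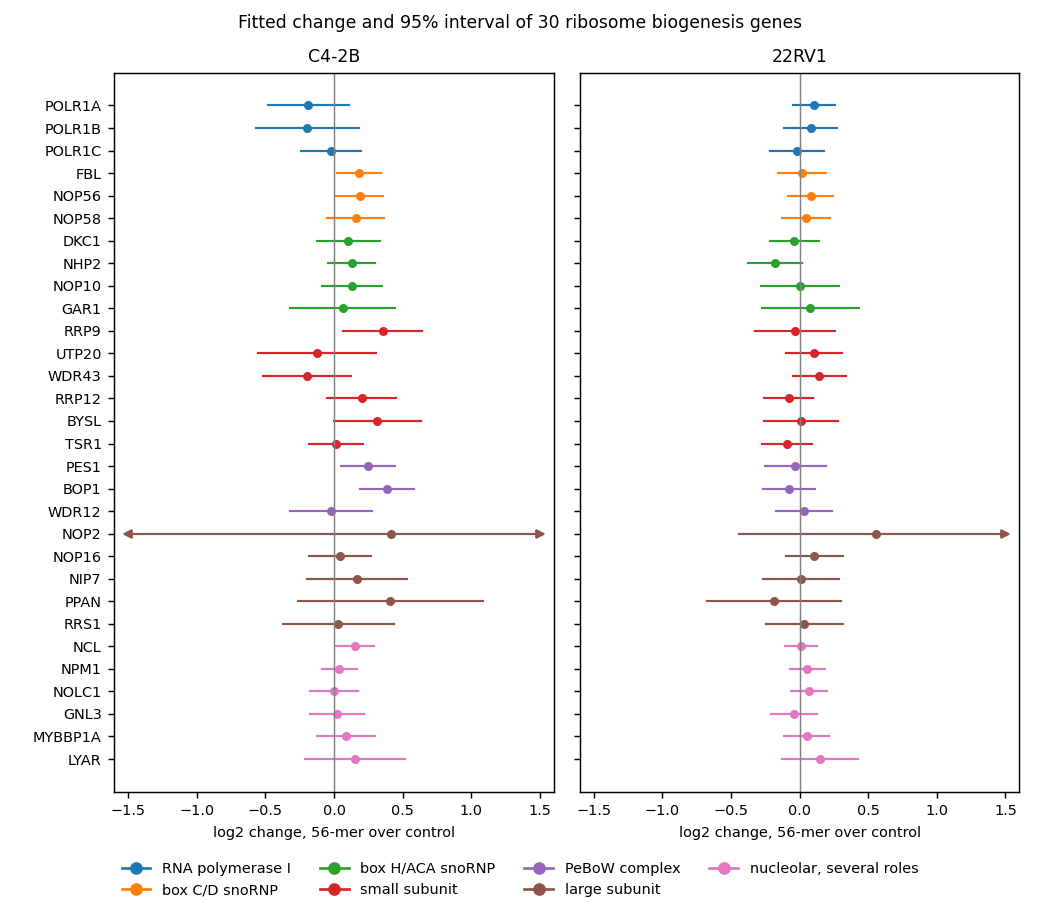
Fitted log2 change with 56-mer over control for the 30 members, coloured by role, in C4-2B (left) and 22RV1 (right), with lines for 95% confidence intervals and arrowheads where an interval runs past the axis. In C4-2B 23 points lie above 0 (19 with equal library totals) and in 22RV1 20 (16 with equal library totals), and 0 members pass the limma test in either line.

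In 22RV1 no member passed the test either, and the median change was near 0. Of 30 members, 0 had an adjusted p under 0.05, against 2 of 20517 tested genes (0.00975%), and the adjusted p was 0.9996 for every member. The log2 change was above 0 in 20 members and below 0 in 10, with a median of 0.025 over the members and −0.0026 over all tested genes. With equal library totals 16 members were above 0, with a median of 0.0084, and without control 2 there were 14, with a median of −0.0041. Without control 3 the median was 0.074. At an unadjusted p under 0.05 there were 0 members, against 3.91% of tested genes, and edgeR and DESeq2 called 0 members. NOLC1, a chaperone of snoRNPs, was the 1 member (3.33%) whose 56-mer libraries all lay above the controls, against 4.45% of tested genes, and 0 members lay below, against 4.58%.

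The change did not pass a test of difference between the lines for any member. The difference, 22RV1 change minus C4-2B change, was below 0 in 18 members and above 0 in 12, with a median of −0.084 over the members and 0.013 over the genes tested in both lines. An adjusted p under 0.05 was reached by 0 members and by 0 of 15527 genes (0%). At an unadjusted p under 0.05 there were 2 members (6.67%), BOP1 and NHP2, against 7.9% of genes, a share near that over all genes. edgeR and DESeq2 called 1 and 11 genes for this difference, with 0 members among them.

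The 3 RNA polymerase I subunits among the members were the role in which no member was above 0 in C4-2B. Of 18 other polymerase I subunits and factors, 10 were above 0 there, with a median log2 change of 0.0022. At a limma unadjusted p under 0.05, 2 of those were higher and 2 lower with 56-mer. POLR1A, the largest subunit, had 545, 843 and 842 normalized read counts in C4-2B with 56-mer, against 832, 837 and 819 in controls. Its 56-mer 1 library lay far below the other 5, which spanned 819 to 843. The log2 change was −0.19 ± 0.14 (SE, n = 3 per group, limma adjusted p = 0.734), and without that library it was 0.023. POLR1B, the second-largest subunit, had 319, 292 and 209.5 normalized read counts with 56-mer, against 284, 352 and 292 in C4-2B controls. The groups overlapped, with a log2 change of −0.19 ± 0.18 (limma adjusted p = 0.80) that was −0.014 without 56-mer 3 and −0.32 without 56-mer 1. POLR1C, shared by polymerases I and III, had a log2 change of −0.021 in C4-2B. In 22RV1 POLR1A, POLR1B and POLR1C had log2 changes of 0.10, 0.082 and −0.018, and their groups overlapped.

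The box C/D proteins, which carry guide snoRNAs for methylation of ribosomal RNA, were all above 0 in C4-2B, with a median log2 change of 0.18. FBL had 4583, 3838 and 3850 normalized read counts in C4-2B with 56-mer, against 3648, 3579 and 3539 in controls. The lowest 56-mer library stood above the highest control, and the 56-mer 1 library stood well above both others. The log2 change was 0.18 ± 0.079 (limma unadjusted p = 0.0280, adjusted p = 0.510), and without 56-mer 1 it was 0.099. NOP56, a scaffold protein of the particle, had 2611, 2660 and 2450 normalized read counts with 56-mer, against 2107, 2415 and 2259 in C4-2B controls. The gap between the groups was narrow, and the log2 change was 0.19 ± 0.083 (limma unadjusted p = 0.0326, adjusted p = 0.518). NOP58, the other scaffold protein, had a log2 change of 0.16 ± 0.10 and overlapping groups. In 22RV1 FBL had 1199, 1166 and 1283 normalized read counts with 56-mer and 1192, 1125 and 1290 in controls, a log2 change of 0.018. NOP56 and NOP58 had 0.082 and 0.044 there, with overlapping groups.

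The box H/ACA proteins, which direct pseudouridylation and also sit in telomerase, were above 0 in 4 of 4 cases in C4-2B, with log2 changes between 0.062 for GAR1 and 0.13 for NOP10. Their groups overlapped, and the smallest unadjusted p was 0.136. DKC1, the pseudouridine synthase itself, had 1177, 1043 and 1033 normalized read counts with 56-mer and 1162, 947 and 926 in C4-2B controls. Here 1 control lay above 2 of the 56-mer libraries. NHP2 had 3101, 2676 and 2738 with 56-mer, against 2445, 2587 and 2748 in C4-2B controls, a log2 change of 0.13 ± 0.083. In 22RV1 NHP2 had 849, 918 and 1068 with 56-mer, against 1005, 1031 and 1173 in controls, a log2 change of −0.18 ± 0.097 (limma adjusted p = 0.9996). The groups overlapped through the third 56-mer library. The difference between the lines for NHP2, 22RV1 minus C4-2B, was −0.31 ± 0.13 (limma unadjusted p = 0.0307, adjusted p = 0.618).

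Factors of the small subunit went both ways, with 4 of 6 above 0 in C4-2B. RRP9, the protein that joins the box C/D core on U3 snoRNA, had 530.4, 611 and 548 normalized read counts in C4-2B with 56-mer, against 396, 494 and 435 in controls. All 3 libraries with 56-mer were above the controls, and the log2 change was 0.35 ± 0.14 (limma unadjusted p = 0.0169, adjusted p = 0.469). In 22RV1 RRP9 had 244.5, 287 and 305 with 56-mer and 293, 281 and 279 in controls, and these groups overlapped. The difference for RRP9, 22RV1 minus C4-2B, was −0.39 ± 0.19 (limma adjusted p = 0.640). WDR43, the human counterpart of yeast Utp5 in the early processome, had 364, 320.5 and 308 normalized read counts in C4-2B with 56-mer and 421, 347 and 372 in controls. It was the member with the lowest fitted change there, −0.20 ± 0.16 (limma adjusted p = 0.743), with 1 control inside the range of the 56-mer libraries. In 22RV1 WDR43 had 1317, 1051 and 1069 with 56-mer and 1056, 968 and 1071 in controls, a log2 change of 0.14 ± 0.095 (limma adjusted p = 0.9996). The 56-mer 1 library was the high one, and the others fell within the range of the controls.

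BYSL, needed for late maturation of the small subunit, had 519.6, 473 and 499.8 normalized read counts in C4-2B with 56-mer and 494, 328.5 and 393 in controls. Its log2 change of 0.31 ± 0.15 missed the unadjusted threshold (limma unadjusted p = 0.0504, adjusted p = 0.560), and control 1 lay inside the 56-mer range. RRP12, an export factor of pre-ribosomes, had a log2 change of 0.20 ± 0.12 and UTP20 of −0.13 ± 0.21 in C4-2B, both with overlapping groups. When a library was left out, that of UTP20 lay between −0.32 and 0.028, so its sign is not settled. TSR1, a late assembly factor related to GTPases, had 1526, 1399 and 1335 with 56-mer and 1441, 1394 and 1380 in C4-2B controls. In 22RV1 TSR1 had 1518, 1336 and 1163 with 56-mer and 1393, 1407 and 1458 in controls. These 56-mer libraries lay on both sides of the controls, with a log2 change of −0.092 ± 0.089 (limma adjusted p = 0.9996), and without 56-mer 3 it was 0.0057.

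PES1, BOP1 and WDR12 form the PeBoW complex, which is required to process the large subunit part of the ribosomal RNA precursor. BOP1 had 1772, 1949 and 1961 normalized read counts in C4-2B with 56-mer, against 1327, 1607 and 1427 in controls, that is, 1894 ± 106 and 1453 ± 142 (SD, n = 3 each). Every 56-mer library was above every control. The log2 change was 0.38 ± 0.095, with a 95% confidence interval of 0.19 to 0.58, and it had the smallest p among the members (limma unadjusted p = 0.000436, adjusted p = 0.207). DESeq2 gave an adjusted p of 0.0246 for BOP1, limma without the 56-mer 1 library 0.0117 at a log2 change of 0.43, and edgeR 0.261. The DESeq2 value was adjusted over fewer genes than that of limma on all libraries. The adjusted p lay between 0.0117 and 0.776 over all alternatives.

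PES1 had 1911, 1752 and 1902 normalized read counts in C4-2B with 56-mer, against 1459, 1778 and 1466 in controls. The second control lay inside the 56-mer range, and the log2 change was 0.25 ± 0.096 (limma unadjusted p = 0.0159, adjusted p = 0.461). WDR12, the third protein of the complex, had 447, 393 and 396.5 with 56-mer and 381, 435 and 438 in C4-2B controls, and its log2 change was −0.019 ± 0.14. In 22RV1 BOP1 had 1005, 1241 and 1273 normalized read counts with 56-mer and 1177, 1194 and 1329 in controls. The low 56-mer 1 library set the sign there: the log2 change was −0.078 ± 0.093, and without that library it was 0.030. The difference for BOP1, 22RV1 minus C4-2B, was −0.46 ± 0.14 (limma unadjusted p = 0.00347, adjusted p = 0.534). PES1 and WDR12 had log2 changes of −0.033 and 0.032 in 22RV1, with overlapping groups.

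**Figure D3:**
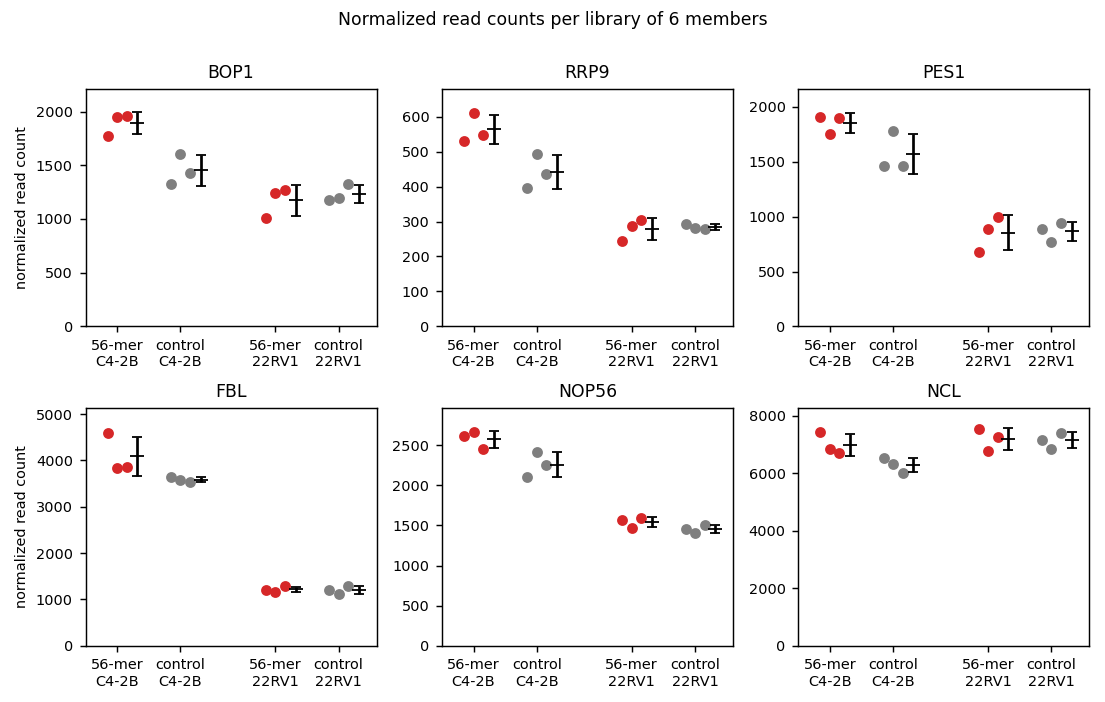
Normalized read counts in each library of the 6 members with an unadjusted p under 0.05 in C4-2B, with 56-mer libraries in red left of the controls in grey, and the mean and SD of each group (n = 3) as bars beside the points. In C4-2B the groups of BOP1, RRP9, FBL, NOP56 and NCL do not overlap and those of PES1 do, while in 22RV1 the groups of all 6 overlap.

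Of the other factors of the large subunit, all 5 had a fitted change above 0 in C4-2B with overlapping groups. NOP2, the human counterpart of a yeast methyltransferase of the large subunit RNA, was close to the filter. It had 5.88, 11.4 and 5.85 normalized read counts in C4-2B with 56-mer and 15.0, 0 and 14.4 in controls, on 55 reads in all 6 libraries. The fitted log2 change was 0.42 ± 1.26 (limma adjusted p = 0.952) although the mean was 7.73 with 56-mer and 9.80 in controls, and DESeq2 gave −0.35. In 22RV1 NOP2 had 14.3, 31.4 and 40.6 with 56-mer and 21, 10.1 and 25.5 in controls, on 145 reads, with a log2 change of 0.56 ± 0.49 (limma adjusted p = 0.9996). NOP2 shares exons on the same strand with AC006064.6, which was at 0 in every library. The direction of NOP2 in C4-2B depended on the test, and its values rest on how the tables' counting treated this locus, which is not given.

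PPAN, the human counterpart of yeast Ssf1 in large subunit assembly, had 58.8, 89.7 and 118 normalized read counts in C4-2B with 56-mer and 66.4, 53.6 and 73.7 in controls. The 56-mer 1 library fell among the controls, and the log2 change was 0.41 ± 0.33 (limma adjusted p = 0.747), with 0.18 without 56-mer 3 and 0.68 without 56-mer 1. In 22RV1 PPAN had 67.8, 132.5 and 121 with 56-mer and 155, 86.3 and 120.5 in controls, a log2 change of −0.19 ± 0.24 (limma adjusted p = 0.9996) that became 0.11 without the 56-mer 1 library. The difference for PPAN, 22RV1 minus C4-2B, was −0.60 ± 0.45 (limma adjusted p = 0.763) and lay between −0.86 and −0.30 when a library was left out. PPAN shares exons with P2RY11, a purinergic receptor gene, which had 1111 to 1213 normalized read counts with 56-mer and 956 to 1031 in C4-2B controls, so the split of reads between them is uncertain. NIP7, RRS1 and NOP16, which act in processing or assembly of the large subunit, had log2 changes of 0.17, 0.032 and 0.042 in C4-2B and of 0.010, 0.033 and 0.11 in 22RV1. NOP16 had 1587, 1133 and 1294 with 56-mer against 1315, 1277 and 1270 in C4-2B controls, so its 56-mer libraries lay on both sides of tightly grouped controls.

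Among the nucleolar proteins with several roles, NCL, the nucleolin that binds ribosomal RNA precursor, had 7435, 6833 and 6701 normalized read counts in C4-2B with 56-mer, against 6528, 6338 and 6021 in controls. The groups did not overlap, and the log2 change was 0.15 ± 0.067 (limma unadjusted p = 0.0344, adjusted p = 0.529). NPM1 had 10427, 9739 and 9626 with 56-mer and 10061, 9343 and 9590 in C4-2B controls, a log2 change of 0.039 with a 95% interval of −0.087 to 0.17. The tables hold 46 entries of NPM1 pseudogenes, whose values together came to 292 to 318 with 56-mer and 315 to 380.1 in C4-2B controls, so reads could be shared with them. GNL3, the GTPase nucleostemin, MYBBP1A, a MYB-binding nucleolar protein, and NOLC1 had log2 changes of 0.020, 0.085 and −4.91e-05 in C4-2B.

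In 22RV1 NCL had 7553, 6770 and 7262 normalized read counts with 56-mer and 7180, 6860 and 7423 in controls, a log2 change of 0.0075. NOLC1 had 3525, 3364 and 3425 with 56-mer and 3357, 3147 and 3335 in 22RV1 controls, with a log2 change of 0.068 ± 0.066 (limma unadjusted p = 0.307). Its lowest 56-mer library exceeded the highest control by a few counts. LYAR, a zinc finger protein of the nucleolus, had 392, 335 and 379 with 56-mer and 294, 309 and 401 in 22RV1 controls. The third control was the highest of the 6, and the log2 change was 0.15 ± 0.14 (limma adjusted p = 0.9996). LYAR had nearly the same fitted change in C4-2B, 0.15 ± 0.18.

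Across the members the fitted change moved with the GC content of the transcript, in opposite directions in the 2 lines. In C4-2B Spearman's rho of log2 change with GC content was 0.653 over the 30 members, and 0.241 over the 10457 tested genes with a mean above 100. The points share the same 6 libraries, so this is a description and no test. The 10 members with the highest GC content (55.9% to 65.2%), which include BOP1, PPAN, RRP9 and PES1, were above 0 in 10 of 10 cases with a median log2 change of 0.28. Among them NOP2 rests on 55 reads and was at −0.35 with DESeq2. RRS1 and MYBBP1A fell to −0.099 and −0.0175 at the lowest when a library was left out. The 10 with the lowest (40.2% to 47.1%), which include WDR43, UTP20, POLR1B and WDR12, were above 0 in 5 of 10 cases, with a median of 0.00021. In 22RV1 rho was −0.426 over the members and −0.188 over 12276 genes. There 4 of the 10 GC-rich members were above 0, with a median of −0.034, and 8 of the 10 GC-poor ones, with a median of 0.067.

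Single libraries differed in this trend. The members' deviation from the line's mean had a rho with GC content of −0.147, 0.650 and 0.550 in the 3 C4-2B libraries with 56-mer and of −0.280, −0.067 and −0.374 in the controls. In 22RV1 it was −0.761, 0.375 and 0.442 with 56-mer and 0.0959, −0.024 and 0.516 in controls, so the 56-mer 1 library stood apart there. After a trend with GC content and length was removed from each library, rho over the members was 0.492 in C4-2B and −0.250 in 22RV1. The median change of the members was then 0.10 in C4-2B, and BOP1 had a log2 change of 0.28 ± 0.086 (limma adjusted p = 0.292). RRP9 had 0.24 (limma unadjusted p = 0.0763) and FBL 0.098 (limma unadjusted p = 0.163). In that fit 4 members (13.3%) had an unadjusted p under 0.05 in C4-2B, against 8.29% of all genes. The part of GC content in the members' changes was not tested.

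**Figure D4:**
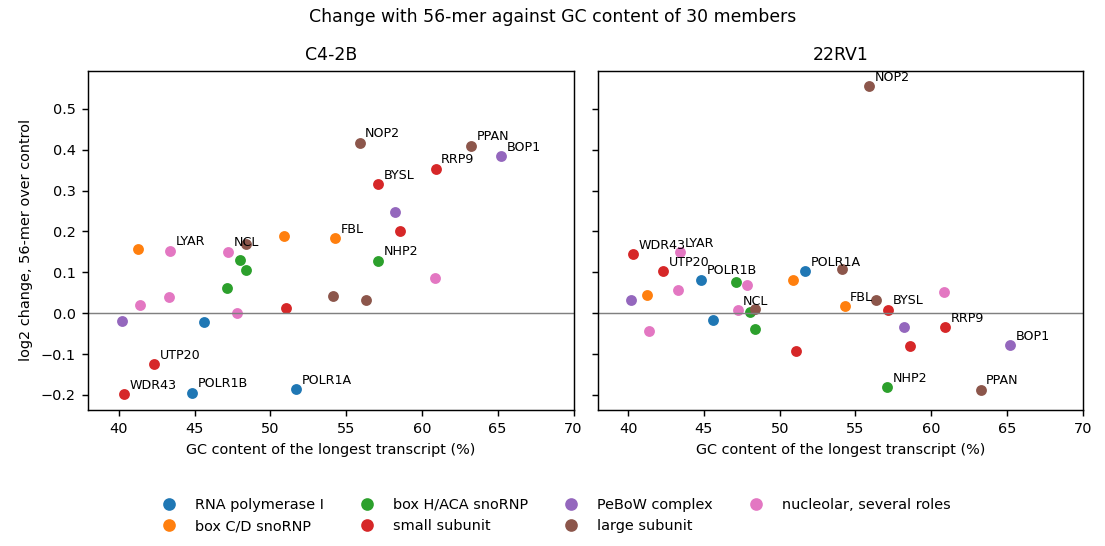
Fitted log2 change with 56-mer over control against the GC content (%) of the longest transcript for the 30 members, coloured by role, in C4-2B (left) and 22RV1 (right). In C4-2B the GC-rich members such as BOP1, PPAN and RRP9 lie above the GC-poor ones such as WDR43 and UTP20 (rho 0.653), and in 22RV1 the trend runs the other way with more scatter (rho −0.426).

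No other gene of the pathway passed the test either. Of 140 further ribosome biogenesis genes, 139 were tested in each line, and 0 were called in either line or for the difference. In C4-2B 80 were above 0 with a median log2 change of 0.042, and at an unadjusted p under 0.05 there were 17 higher and 5 lower with 56-mer. These are 57.6% above 0, against 48.3% of all tested genes, and 15.8% under that p, against 8.92%. In 22RV1 81 (58.3%) were above 0 with a median of 0.021, against 49.4% of all tested genes, with 2 higher and 2 lower (2.88%, against 3.91%). For the difference between lines, 2 were above 0 and 10 below 0 at an unadjusted p under 0.05. These are 8.7% of the 138 tested, against 7.9% of all genes tested in both lines, a share near that over all genes. The gene lists were chosen with earlier results of these data known. SNU13, which binds box C/D and U3 snoRNAs beside FBL and NOP56, had 2500, 2462 and 2191 normalized read counts in C4-2B with 56-mer, against 1993, 1678 and 1887 in controls. All 56-mer libraries exceeded the controls, and the log2 change was 0.37 ± 0.090 (limma adjusted p = 0.207). ZNRD1, a small polymerase I subunit, had a log2 change of 0.62 (limma adjusted p = 0.398) in C4-2B, the U3 protein gene IMP4 of 0.40 (0.334) and WDR18 of 0.34 (0.312). In 22RV1 the smallest unadjusted p in each list was that of TWISTNB, another polymerase I subunit (log2 change 0.33), ZNHIT3 (−0.31), WDR46 (0.34) and SURF6 (0.20), each with an adjusted p of 0.9996.

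Introns of NCL, NOP56, NOP58, DKC1, GNL3, TSR1, WDR43 and PPAN host snoRNAs that guide the modification enzymes. Of 22 such snoRNAs looked up by symbol, 0 passed the filter in either line, and their highest value in any library was 19.5 normalized read counts in C4-2B and 20.5 in 22RV1. At these values no change of the hosted snoRNAs was detectable. Exons of 12 members overlap another protein-coding gene, on the opposite strand for 9 and on the same strand for 3. The sources used here do not say whether the counting used strand, so values of PES1, NHP2, NOP16 and the others among these 12 may include reads of their neighbours.

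In the authors' deposited table for C4-2B the log2 fold change was above 0 for 22 of the 30 members and the unadjusted p was under 0.05 for 6. For BOP1 the authors' deposited table gave 0.38 ± 0.10 with an unadjusted p of 0.000206. For RRP9 the authors' deposited table gave 0.35 and for PES1 0.24. In the authors' deposited table for 22RV1 20 of 30 members were above 0 and 0 had an unadjusted p under 0.05. The adjusted p in the authors' deposited tables was 1 for the members to 3 digits. In the authors' deposited table for C4-2B 0 of 28774 listed genes had an adjusted p under 0.05, with a lowest value of 0.447. In that for 22RV1 it was 0 of 38270. The share of all genes under the unadjusted p is not given here for these tables, which rest on the same 12 libraries.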

How the data were processed

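For each line the authors deposited a table of normalized values and a table of their own comparison. The normalized values are a signal per gene symbol, read counts that the authors divided by a library's size factor (0.732 to 1.18): each nonzero value is a whole multiple of 1 step per library within 0.01, and the whole reads recovered were 100% of nonzero values in all 12 libraries. The entry without a symbol (1 per table) was left out. The deposited comparison tables hold, per the file headers, a mean signal, a log2 fold change with its error, a score (the test statistic), and p-values. Per the submitters' processing notes DESeq was used. The sources used here name no aligner, counting tool, strand setting, build or annotation.

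Within each line, genes at 10 or more in at least 3 libraries were tested with limma 3.58.1 (R 4.3.3, trended, robust variance) on log2(normalized value + 1), two-sided, with Benjamini-Hochberg adjustment over all tested genes and a threshold of 0.05. The interaction was fitted over 12 libraries. Errors are SE for log2 changes and SD for means; intervals cover 95%. DESeq2 1.42.0, voom and, added after seeing the data, edgeR 4.0.16 were run on recovered reads. The tests were tried on simulated data. Lengths and GC content came from GENCODE release 29, which matched 96.1% of tested genes in C4-2B and 95.5% in 22RV1, and promoter sequences from RefSeq. Levels used the longest transcript.

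Members and gene lists were chosen with earlier results of these data known. All members were accounted for. Values in every library are given for the 3 largest rises and falls per line, the 3 largest differences between lines, and members chosen after their values were seen (FBL, NOP56, NCL, PES1, RRP9, BYSL, DKC1, WDR12, NPM1, NOP16, NOLC1). No other members have all libraries listed. Some marker genes are not reported here.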

Additional observations from a re-analysis of the deposited data

How the results depend on the processing

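No paired analysis was possible because nothing in the labels links a 56-mer library to a particular control. In C4-2B the 11 called genes became 34 without the filter, 1 without trended and robust variance, 20 after removal of the GC and length trend, 0 with edgeR, 42 with DESeq2, and 0 to 81 when a library was left out; members called were 1 with DESeq2 and 0 to 1 when a library was left out, the 1 being BOP1. The members' median log2 change in C4-2B was 0.076 with equal totals and 0.066 to 0.13 when a library was left out, and in 22RV1 0.0084 with equal totals and −0.0041 to 0.074. In 22RV1 the 2 called genes became 11 without the filter, 0 without trended and robust variance, 7 after removal of the GC and length trend, and 0 to 11 when a library was left out (11 without 56-mer 3). For the difference between lines the 0 called genes became 1 under quantile normalization, 5 without the filter, 1 without trended and robust variance, 5 after removal of the GC and length trend, 3 with voom, 1 with edgeR, 11 with DESeq2, and 0 to 13 when a library was left out (13 without C4-2B 56-mer 1), with 0 members called throughout. Among members named for their change, signs turned for NOP2 in C4-2B (−0.059 with a pseudocount of 10, −0.35 with edgeR, −0.35 with DESeq2, −0.91 to 0.56 when a library was left out) and, when a library was left out, for POLR1A (−0.29 to 0.023) and UTP20 (−0.32 to 0.028) in C4-2B and for PPAN (−0.41 to 0.11), BOP1 (−0.14 to 0.030) and TSR1 (−0.19 to 0.0057) in 22RV1. Over all alternatives 0 to 5 of 30 members changed sign in C4-2B, 0 to 9 in 22RV1 and 0 to 5 for the difference. The cause of these shifts was not tested. With union exon lengths the median control level was 20.2 RPKM in C4-2B and 18.2 RPKM in 22RV1. Without mitochondrially encoded genes the members' share was 0.440% with 56-mer and 0.419% in controls in C4-2B, and 0.369% with 56-mer and 0.364% in controls in 22RV1. Depth limits NOP2, PPAN and the hosted snoRNAs most.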
